A study of Homo sapiens with 4 samples.

Results

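The 36 genes described here encode the enzymes, membrane proteins and acidifying pump of the lysosome (22 genes) and the machinery of autophagy (14 genes). They were taken from a list of gene symbols, and a gene was read through the probe sets whose platform annotation names that gene alone. All 36 were measured, on 82 probe sets, among 19775 genes in all. RNA came from HepG2, an established human hepatoma line, 4 days after transfection with small interfering RNA (siRNA) in medium with 25 mM glucose and 10% serum. LSD1-KD cells received siRNA-1 on 1 array and siRNA-2 on the other, both against LSD1, the histone demethylase encoded by KDM1A, and control cells received an siRNA against GL3 on 2 arrays. The study asked what loss of LSD1 does to the metabolism of hepatic cancer cells. Each group is the same line under transient transfection, and nothing in the labels gives the arrays of a group as separate cultures, so p-values measure only the spread between these 4 arrays.

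Lysosomes break down material delivered by endocytosis and autophagy, with hydrolases that work in an acidic lumen kept acid by the vacuolar proton pump (V-ATPase). In autophagy a membrane forms around cytoplasmic cargo under the ULK1 kinase and the Beclin 1 lipid kinase complex. It is decorated with lipid-bound ATG8 proteins by a conjugation system and then fuses with a lysosome. The transcription factor TFEB drives many genes of both systems through E-box motifs near their start sites. In the liver these systems turn over lipid droplets, glycogen and organelles.

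The deposited numbers come from RMA, are read here as log2, and were centred by the authors so that each probe set has a median of 0 over the 4 arrays. Differences between arrays of 1 probe set can therefore be read, levels of different genes cannot be compared, and the middle pair of arrays often carries equal values of opposite sign. One probe set stands for each gene, that of the brightest class. Of the 36 chosen probe sets, 30 lay in the class of log2 level 8 or above and 6 between 4 and 8. A difference is given as LSD1-KD minus control with its standard error (SE, n = 2 arrays per group), and each siRNA is also set against the control mean alone. All tests are limma tests over the 19775 genes with Benjamini-Hochberg adjustment and a threshold of 0.05. Those of a single siRNA take their spread from the 2 control arrays and assume that 1 array varies like them. With 2 arrays against 2, an exact two-sided permutation test cannot give a p below 0.33.

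KDM1A read -1.55 (siRNA-1) and -1.17 (siRNA-2), against 1.23 and 1.17 on the control arrays, a difference of -2.56 ± 0.16 (adjusted p = 0.0850). The spread of the centred values over all probe sets was widest with siRNA-2 (SD 0.384, against 0.197 with siRNA-1 and 0.164 and 0.154 on the controls). All 8 hepatocyte markers lay in the brightest class, as did 1 of 6 leukocyte, 3 of 4 fibroblast and 1 of 4 endothelial markers. The 8 hepatocyte markers were also above both controls on both LSD1-KD arrays, by 0.11 (APOB) to 0.94 (ALB), as were COL1A1 (1.88), CD14 (1.31) and PECAM1 (0.49) of the other lists. DCN was below both (-0.27), and the other 10 markers overlapped the controls. The hybridization spike-ins, bacterial transcripts added to each sample before hybridization, averaged 0.61 and 0.65 on the LSD1-KD arrays and -0.69 and -0.61 on the controls. The difference between the 5′ and 3′ probe sets of ACTB, a measure of RNA integrity, was -0.26 and -0.38 on the LSD1-KD arrays and 0.34 and 0.23 on the controls. These separate the groups in the same way as the siRNAs do, and their part in the results was not tested. The RNA came from whole cultures, in which fewer cells of a kind and less RNA per cell cannot be told apart.

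No lysosomal or autophagy gene passed the test of both LSD1-KD arrays against both controls (0 of 36, smallest adjusted p = 0.201), and neither did any of the 19775 genes (0% in each direction). At an unadjusted p under 0.05, 2 lysosomal genes were higher and 3 lower, and 1 autophagy gene was higher and 2 lower. Over all genes, 7.51% were higher and 7.11% lower by that measure. With siRNA-2 alone, 10 of the 36 rose and 6 fell, where 13.3% of all genes rose and 10.2% fell. CTSD, CTSH, CTSZ, GAA, GUSB, NPC2, ULK1, WIPI1, GABARAPL1 and OPTN rose, and LAMP2, MCOLN1, CTSB, BECN1, ATG12 and MAP1LC3B fell. LAMP2 fell on its chosen probe set only, and with the mean of all its probe sets it stood at 0.38. Fitted with every probe set on its own, the chosen probe sets of MCOLN1, CTSB and ATG12 no longer passed. In that fit some other probe sets of CTSB (down to -1.31) and ATG12 (-0.56) did pass, and others of both genes did not. With the mean of all probe sets CTSZ and BECN1 did not pass. Without probe sets ending in _x_at or _s_at, BECN1 stood at -0.17 (adjusted p = 0.317). With siRNA-1 alone none passed (0% of all genes in each direction). At an unadjusted p under 0.05, 4 lysosomal genes were higher and 9 lower with siRNA-1, and 1 autophagy gene was higher and 4 lower, beside 13.8% and 12.9% of all genes.

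Both LSD1-KD values lay above both controls for 5 of 22 lysosomal genes (22.7%) and below both for 7 (31.8%), beside 23.6% and 25.4% of all genes. For the autophagy genes the counts were 5 of 14 in each direction (35.7%). The median difference was 0.02 over the lysosomal genes, -0.05 over the autophagy genes and -0.004 over all genes. Neither list as a whole stood off zero in 1 direction.

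**Figure D1:**
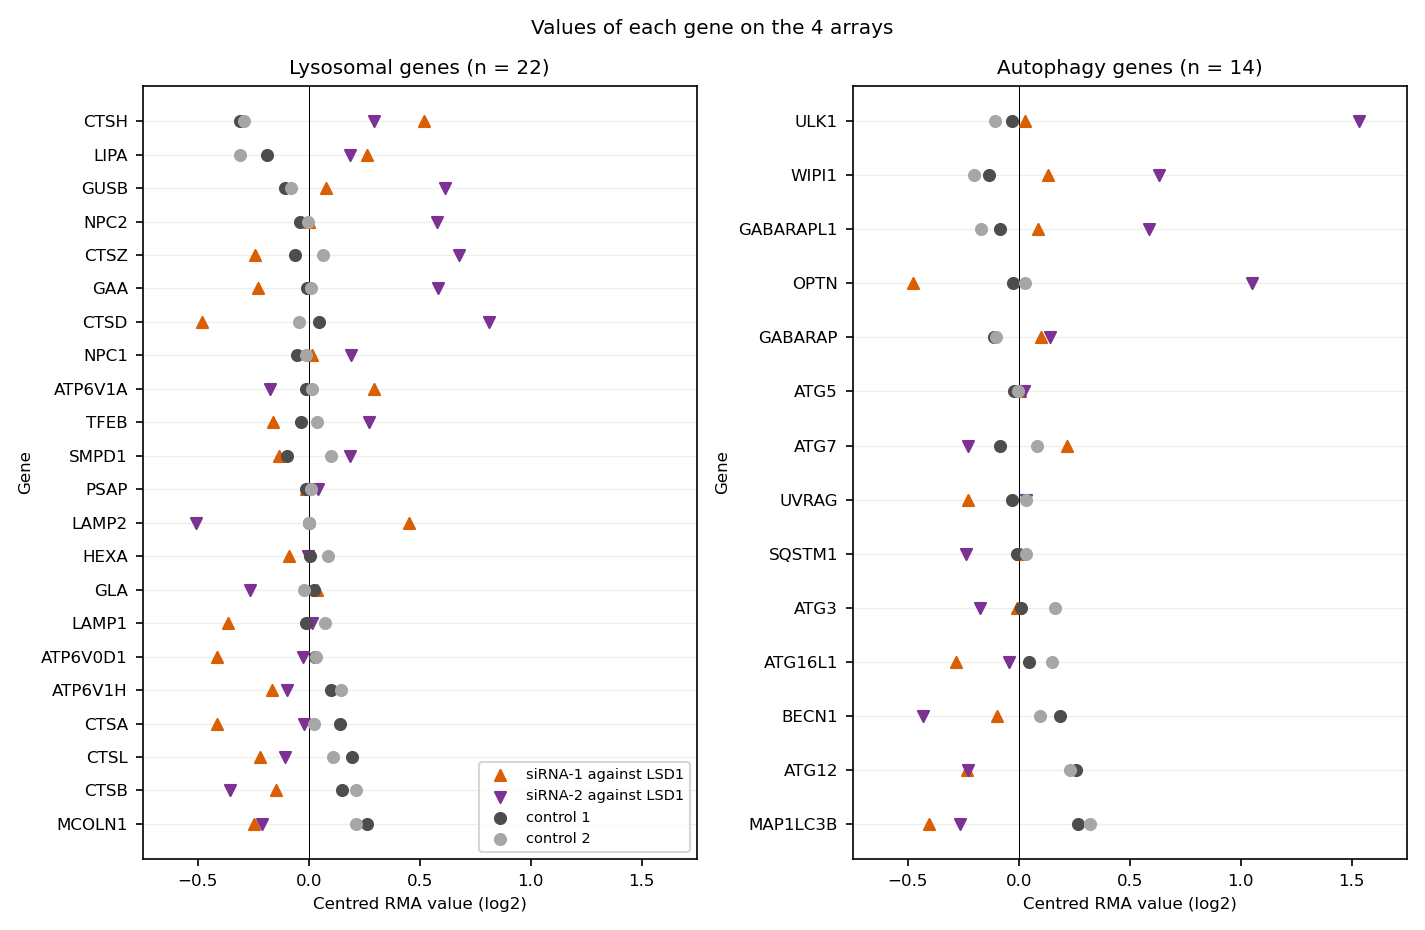
Centred RMA value (log2, x axis) of every lysosomal (left) and autophagy gene (right) on the arrays of siRNA-1 and siRNA-2 against LSD1 (triangles) and on the 2 control arrays (circles), with genes ordered down the page by their mean difference. CTSH and MAP1LC3B mark the clear separations upward and downward, while CTSD and OPTN have the 2 LSD1-KD arrays on opposite sides of the controls.

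The promoter sequences show which of these genes carry the motif that TFEB and its relatives bind. The motifs looked for from 250 bases before to 50 bases after each RefSeq start site (GRCh38.p14) were CACGTG, the core of the E-box, and TCACGTGA, the longer form typical of lysosomal genes, which contains the first. Both read the same on either strand. Promoters were found for 29 of the 36 genes, not for LAMP2, CTSB, HEXA, PSAP, ATP6V1A, ATP6V1H and UVRAG. CACGTG was present in 7 of the 29 (24.1%), against 8.9% of 15384 promoters of genes on the array, and TCACGTGA in 6 of the 29 (20.7%), against 1.45%. CACGTG was in 6 of 16 lysosomal promoters (37.5%) but in only 1 of 13 autophagy promoters (7.69%). For TCACGTGA these were 5 of 16 (31.25%) and 1 of 13 (7.69%). The stretches below are written on the strand of the gene with the first match of the longest motif present in capitals; further matches of the shorter one stay in lower case. They are shown because these are the genes in which a TFEB-type motif could be read beside the array values. They lie at chr13:113297184-113297243 (+) for LAMP1, chr19:7522556-7522615 (+) for MCOLN1, chr20:45891283-45891342 (+) for CTSA, chr11:1763943-1764000 (-) for CTSD, chr17:80101478-80101537 (+) for GAA, chr16:67481184-67481243 (-) for ATP6V0D1 and chr3:112561943-112561984 (-) for ATG3.
LAMP1: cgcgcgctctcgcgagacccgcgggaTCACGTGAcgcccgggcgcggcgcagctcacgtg
MCOLN1: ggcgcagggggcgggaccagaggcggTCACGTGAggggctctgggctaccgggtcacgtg
CTSA: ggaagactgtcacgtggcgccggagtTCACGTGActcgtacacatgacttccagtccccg
CTSD: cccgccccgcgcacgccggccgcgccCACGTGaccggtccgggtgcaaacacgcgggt
GAA: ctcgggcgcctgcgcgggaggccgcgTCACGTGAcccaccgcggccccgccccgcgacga
ATP6V0D1: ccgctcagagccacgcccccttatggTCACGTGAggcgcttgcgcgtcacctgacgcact
ATG3: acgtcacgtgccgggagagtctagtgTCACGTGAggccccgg
LAMP1, MCOLN1, CTSA and ATG3 each hold a second CACGTG in the stretch shown. With siRNA-1 the difference from control was negative for all 7 of these genes (median -0.44), and with siRNA-2 for 5 of 7 (median -0.06). Among the 22 genes with a promoter and no CACGTG, 10 were negative with siRNA-1 (median 0.02) and 8 with siRNA-2 (median 0.24). ATG3 is the only autophagy gene among the 7, while the 22 hold most of the autophagy genes. This comparison therefore mixes motif and list. Of the lysosomal genes with a promoter and no CACGTG, TFEB, CTSL, CTSZ and SMPD1 were negative with siRNA-1. NPC1, CTSH, GLA, GUSB, LIPA and NPC2 were positive. With siRNA-2 only CTSL and GLA of these were negative. A part of the motif in these values was not tested. Over all genes on the array with TCACGTGA (n = 223), 61.4% were negative with siRNA-1 and 54.3% with siRNA-2, against 50.2% and 52.4% of genes without it. None of the 7 passed the test with siRNA-1, and a match of letters is no evidence that a factor binds there in these cells.

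TFEB itself, the regulator of this gene set, read -0.16 for siRNA-1 and 0.27 for siRNA-2, against -0.03 and 0.03 on the controls, so the LSD1-KD arrays lay on opposite sides. Its other probe set, of the same brightness class, read 0.17 and 0.51, against -0.17 and -0.32, with both LSD1-KD arrays above. With siRNA-2 both probe sets were thus above both controls, while the direction with siRNA-1 depended on the probe set. The related factors TFE3 and MITF differed by 0.08 and -0.01.

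The membrane proteins of the lysosome did not move as a group. MCOLN1, the calcium channel mucolipin 1, read -0.25 and -0.21 on the LSD1-KD arrays (siRNA-1, then siRNA-2, here and in what follows), against 0.26 and 0.21 on the controls. Both LSD1-KD arrays were low, the difference was -0.46 ± 0.10, and the gene fell with siRNA-2 (-0.45, adjusted p = 0.0409). LAMP1, an abundant glycoprotein of the lysosomal membrane, differed by -0.39 and -0.02, and the groups overlapped. All 4 of its probe sets were negative with siRNA-1, and 2 were positive with siRNA-2. NPC1, which exports cholesterol from the lysosome, differed by 0.04 and 0.22 on its chosen probe set and by 0.23 and 1.29 on another of the brightest class, while 2 dim ones gave -0.11 and 0.06, and 0.04 and 0.14. LAMP2, the other major membrane glycoprotein and a receptor in chaperone-mediated autophagy, read 0.45 and -0.51, against -0.0014 and 0.0014. It fell with siRNA-2 on this probe set (adjusted p = 0.0309), where siRNA-1 gave 0.45. The other 3 LAMP2 probe sets were higher with both siRNAs, by 0.64 to 0.78 with siRNA-1 and by 0.48 to 1.06 with siRNA-2. Averaged over its 4 probe sets LAMP2 was 0.38 above control with siRNA-2, so the fall belongs to 1 probe set and not to the gene as a whole.

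The cathepsins, proteases of the lumen, split 3 ways. CTSH, an aminopeptidase, read 0.52 and 0.29 on the LSD1-KD arrays, against -0.31 and -0.29 on the controls. This was the largest separation upward among the lysosomal genes, 0.71 ± 0.12, with 0.82 for siRNA-1 (adjusted p = 0.0847) and 0.59 for siRNA-2, where it rose (adjusted p = 0.0253). CTSB, a cysteine protease, read -0.15 and -0.35, against 0.15 and 0.21, a difference of -0.43 ± 0.12. It fell with siRNA-2 (-0.54, adjusted p = 0.0325). All 5 CTSB probe sets were negative with siRNA-2, from -0.41 to -1.31 on the other 4, while 1 of those stood at 0.16 with siRNA-1.

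CTSL, another cysteine protease, read -0.22 and -0.11, against 0.20 and 0.11 (-0.32 ± 0.11), and CTSA, the protective protein of beta-galactosidase and neuraminidase, read -0.41 and -0.02, against 0.14 and 0.02 (-0.30 ± 0.17). Both were low on both LSD1-KD arrays, CTSA by little with siRNA-2, and neither passed a test. The remaining pair moved apart between the siRNAs. CTSD, the main aspartic protease of lysosomes, read -0.48 and 0.81, against 0.05 and -0.05. CTSZ, a carboxypeptidase, read -0.24 and 0.67, against -0.06 and 0.06. Both rose with siRNA-2 (adjusted p = 0.0222 for CTSD and 0.0316 for CTSZ). The second CTSZ probe set, also of the brightest class, differed by -0.29 and -0.06 and did not share that rise.

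Among the enzymes of sugar breakdown, GUSB, the beta-glucuronidase, read 0.08 and 0.62, against -0.11 and -0.08, a difference of 0.44 ± 0.21. It rose with siRNA-2 (0.71, adjusted p = 0.0215), and siRNA-1 lay only just above the controls. A second, dimmer GUSB probe set differed by 0.08 and 0.0082, overlapped the controls and did not share that rise. GAA, the acid alpha-glucosidase that degrades lysosomal glycogen, read -0.23 and 0.58, against -0.0095 and 0.0095, and rose with siRNA-2 (adjusted p = 0.0259). GLA, the alpha-galactosidase, differed by 0.04 and -0.27. HEXA, the alpha subunit of beta-hexosaminidase, differed by -0.14 and -0.05 on its chosen probe set and by -0.53 and -0.76 on another, dimmer one.

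Of the 4 genes of lipid handling, 2 lay above both controls on both LSD1-KD arrays (23.6% of all genes) and none below (25.4%). LIPA, the acid lipase that hydrolyses cholesteryl esters and triglycerides, read 0.26 and 0.19, against -0.19 and -0.31. The difference of 0.47 ± 0.11 was of similar size with each siRNA (0.51 and 0.44) and did not pass with either (adjusted p = 0.114 and 0.0615). A dim second probe set of LIPA gave -0.09 and -0.17. NPC2, which hands cholesterol to NPC1, read 0.0027 and 0.58, against -0.04 and -0.0027, and rose with siRNA-2 (0.60, adjusted p = 0.0257). PSAP, the precursor of the saposins, differed by -0.01 and 0.04, and SMPD1, the acid sphingomyelinase, by -0.14 and 0.19, with its 4 probe sets going different ways.

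The V-ATPase acidifies the lysosome with a cytosolic V1 sector that splits ATP and a membrane V0 sector that carries protons. ATP6V0D1, a V0 subunit, read -0.42 and -0.03, against 0.03 and 0.03 (-0.25 ± 0.16), and ATP6V1H, a regulatory V1 subunit, read -0.17 and -0.10, against 0.10 and 0.15 (-0.26 ± 0.10). The dim probe sets of ATP6V1H gave 0.03 and 0.17 with siRNA-1 and -0.18 and -0.05 with siRNA-2. ATP6V1A, the catalytic V1 subunit, differed by 0.29 and -0.17, and its other probe set by -0.33 and -0.92. Adding the 15 other V-ATPase genes measured, 11 of 18 (61.1%) were below both controls on both LSD1-KD arrays and 3 (16.7%) above both. In the V1 sector these were 6 of 8 and 0 of 8, and among V0 and accessory genes 5 of 10 and 3 of 10. All genes gave 25.4% below and 23.6% above.

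ATP6V1D, a subunit of the central stalk, read -0.28 and -0.32 on the LSD1-KD arrays, against 0.28 and 0.36 on the controls, a difference of -0.62 ± 0.10. ATP6V1E1, of the outer stalk, read -0.43 and -0.25, against 0.25 and 0.27 (-0.60 ± 0.12). ATP6V1C1, a regulatory subunit of V1, read -0.26 and -0.25, against 0.25 and 0.28, and ATP6V0B, of the proton-carrying ring, read -0.30 and -0.23, against 0.23 and 0.29. In each of these 4 genes both LSD1-KD arrays were low by similar amounts. Over all genes, 10.2% fell and 13.3% rose with siRNA-2. The 4 fell with siRNA-2 (adjusted p from 0.0270 to 0.0380), ATP6AP1, an accessory subunit, rose (0.54, adjusted p = 0.0292), and none of the 18 passed the test of both siRNAs together (smallest adjusted p = 0.199, with 2 higher and 6 lower at an unadjusted p under 0.05, beside 7.51% and 7.11% of all genes). Of 19 further probe sets of these genes that were not dim, 10 were below both controls, 2 above both and 7 overlapped them. The V-ATPase count was made after the values had been seen, and it is a description of these arrays.

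**Figure D2:**
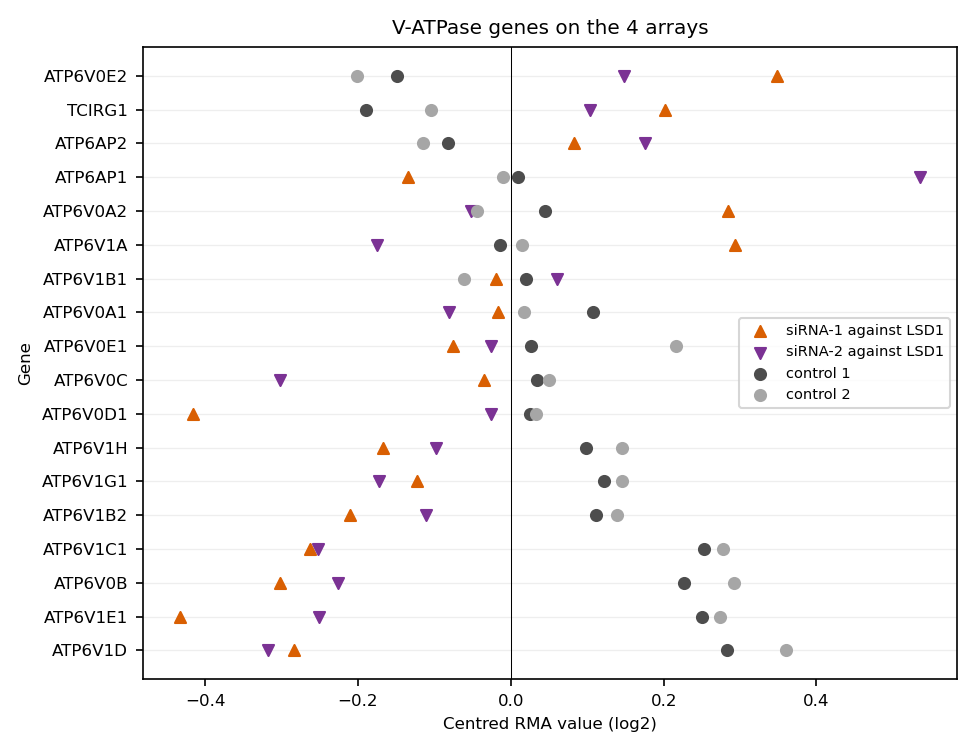
Centred RMA value (log2, x axis) of 18 V-ATPase genes (rows, ordered by mean difference) on the arrays of siRNA-1 and siRNA-2 against LSD1 (triangles) and on the 2 control arrays (circles). Both triangles lie left of both circles in 11 genes and right of both in 3.

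Autophagy starts with the ULK1 kinase complex and a lipid kinase complex that contains Beclin 1. ULK1 read 0.03 and 1.53, against -0.03 and -0.11 on the controls. It rose with siRNA-2 by 1.60 on the log2 scale (3.04-fold, adjusted p = 0.0146) and differed by 0.10 with siRNA-1. The rise was on 1 array alone, and over both siRNAs the difference was 0.85 ± 0.52. WIPI1, which binds the lipid that the Beclin 1 complex makes, read 0.13 and 0.63, against -0.13 and -0.20 (0.55 ± 0.20). Both LSD1-KD arrays were high, its second probe set gave 0.34 and 0.75, and it rose with siRNA-2 (0.80, adjusted p = 0.0209). BECN1, encoding Beclin 1, went the other way, with -0.10 and -0.43, against 0.18 and 0.10 (-0.41 ± 0.15). It fell with siRNA-2 (-0.57, adjusted p = 0.0328), where its other probe sets, 1 dim and 1 of no readable class, gave -0.17 and 0.0056. UVRAG, a partner of Beclin 1, differed by -0.23 and 0.03.

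Of the 5 genes of the conjugation system, 3 lay below both controls on both LSD1-KD arrays (25.4% of all genes) and 1, ATG5, above (23.6%). ATG12, the ubiquitin-like protein joined to ATG5, read -0.24 and -0.23, against 0.26 and 0.23, a difference of -0.48 ± 0.10. It was low by similar amounts with both siRNAs and fell with siRNA-2 (-0.47, adjusted p = 0.0349). Its other 2 probe sets gave -0.34 and -0.56 with siRNA-2 but -0.15 and 0.15 with siRNA-1. ATG16L1, which places the ATG12-ATG5 conjugate on the membrane, read -0.28 and -0.04, against 0.04 and 0.15 (-0.26 ± 0.13), and its dim second probe set gave -0.04 and 0.07. ATG3, the enzyme that transfers ATG8 proteins to lipid, differed by -0.10 and -0.26, and ATG5 by 0.02 and 0.03. Another ATG5 probe set gave -0.27 and -0.05, and one of no readable class gave 0.04 and 0.76. ATG7, the activating enzyme, differed by 0.22 and -0.23, while its other probe sets were lower with both siRNAs.

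The 3 ATG8-family genes did not go together. MAP1LC3B, the LC3 protein used as the standard marker of autophagosomes, read -0.41 and -0.27 on the LSD1-KD arrays, against 0.27 and 0.32 on the controls. The difference of -0.63 ± 0.11 was the largest downward among the 36 genes, with -0.70 for siRNA-1 (adjusted p = 0.0907) and -0.56 for siRNA-2, where it fell (adjusted p = 0.0301). Its second probe set gave -0.66 and -0.33. GABARAP read 0.10 and 0.14, against -0.11 and -0.10 (0.23 ± 0.10), with both LSD1-KD arrays high and no test passed. GABARAPL1 read 0.09 and 0.59, against -0.09 and -0.17 (0.46 ± 0.20), and rose with siRNA-2 (0.71, adjusted p = 0.0243). Its second, dimmer probe set gave -0.28 and 0.18. The chosen probe sets of MAP1LC3B and GABARAPL1 carry the suffix _s_at, which marks probes that can match several transcripts, and near-identical copies of these genes exist. The chosen probe sets of CTSH, CTSL, CTSZ, MCOLN1, HEXA, PSAP, ATP6V1H, BECN1, ATG5, ATG16L1 and OPTN carry the same suffix, and that of SMPD1 the suffix _x_at, so all of these values are uncertain to that extent.

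Among the cargo receptors, SQSTM1 (p62), which is itself degraded by autophagy, read 0.0094 and -0.24, against -0.0094 and 0.03. This chosen probe set did not pass with siRNA-2 (-0.25), and its other 3 probe sets that were not dim gave -0.08, 0.04 and -0.83 there. The probe set at -0.83 passed when every probe set was fitted on its own, and it was below both controls on both LSD1-KD arrays. OPTN, optineurin, a receptor for damaged mitochondria and bacteria, read -0.48 and 1.05, against -0.03 and 0.03. It rose with siRNA-2 (adjusted p = 0.0157), and its second probe set gave -0.11 and 0.88, the same order of the siRNAs.

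**Figure D3:**
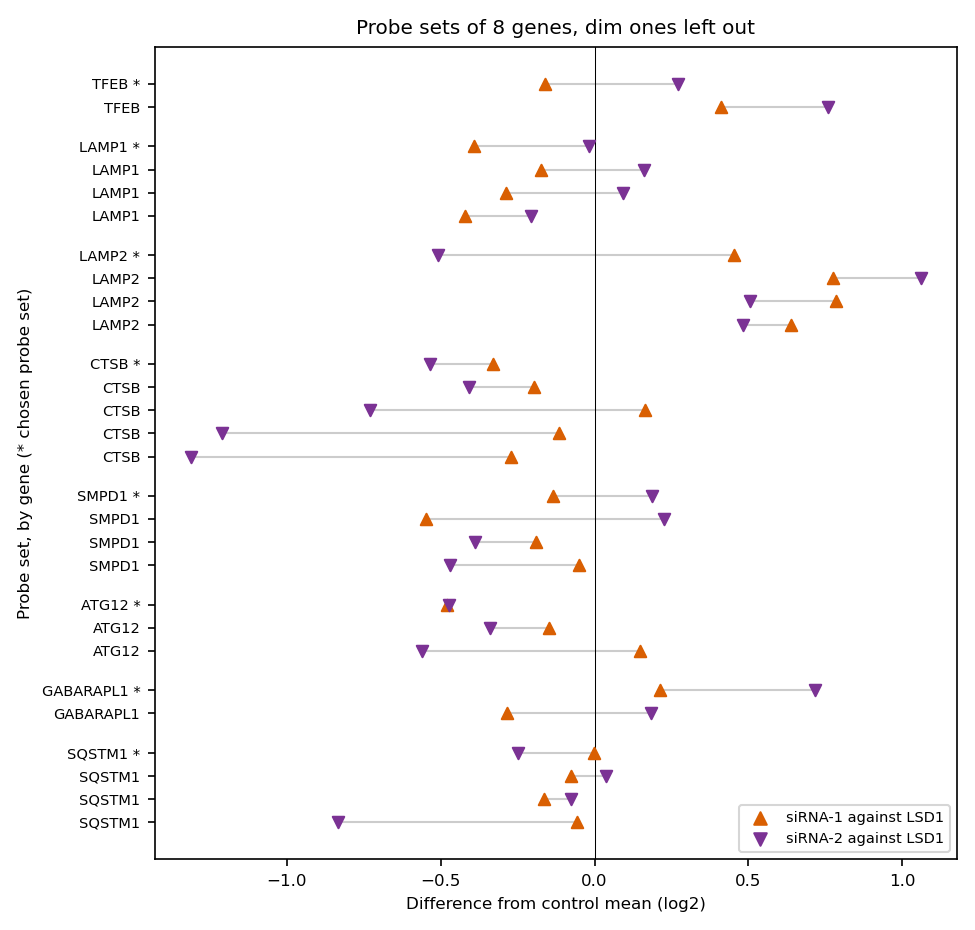
Difference from the control mean (log2, x axis) with siRNA-1 (upward triangles) and siRNA-2 (downward triangles) for every probe set outside the dimmest class of 8 genes whose probe sets disagree; the row with an asterisk is the one used for the gene. LAMP2 has 1 probe set with the siRNAs on opposite sides and 3 with both to the right of 0.

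The test of siRNA-2 against siRNA-1 passed for 5 genes upward (CTSD, CTSZ, GAA, ULK1 and OPTN, with 4.13% of all genes) and for LAMP2 downward (2.92% of all genes). The siRNA-2 minus siRNA-1 difference was 1.53 ± 0.08 for OPTN, 1.51 ± 0.09 for ULK1 and 1.29 ± 0.10 for CTSD. It was 0.92 ± 0.11 for CTSZ, 0.81 ± 0.08 for GAA and -0.96 ± 0.08 for LAMP2, with adjusted p between 0.0401 and 0.0476 for the 6. When every probe set was fitted on its own, none of these differences passed. With the mean of all probe sets LAMP2 stood at -0.28 (adjusted p = 0.104), and without probe sets ending in _x_at or _s_at the GAA difference did not pass (adjusted p = 0.0516). For 9 of 22 lysosomal genes (40.9%) the LSD1-KD arrays lay on opposite sides of both controls, beside 21.9% of all genes, and for 2 of 14 autophagy genes. TFEB, CTSD, CTSZ, GAA, PSAP, SMPD1 and OPTN were below with siRNA-1 and above with siRNA-2. LAMP2, GLA, ATP6V1A and ATG7 were the reverse. These counts rest on the chosen probe sets. The other probe sets of TFEB, PSAP, LAMP2, ATP6V1A and ATG7 had both LSD1-KD arrays on the same side of the controls. That of CTSZ overlapped them, while the second of OPTN and another of SMPD1 kept opposite sides. CTSD, GAA and GLA have only 1 probe set. PSAP was below with siRNA-1 by very little (-0.0121, against a lower control of -0.0113). The median over lysosomal genes was -0.15 for siRNA-1 and 0.01 for siRNA-2, where all genes had 0.0006 and -0.02. The difference from control differed in sign between the siRNAs for 12 of the 36 genes, beside 35.5% of all genes, and was larger in size for siRNA-2 in 22 of 36, beside 61.9%. Over autophagy genes both siRNAs gave -0.05.

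**Figure D4:**
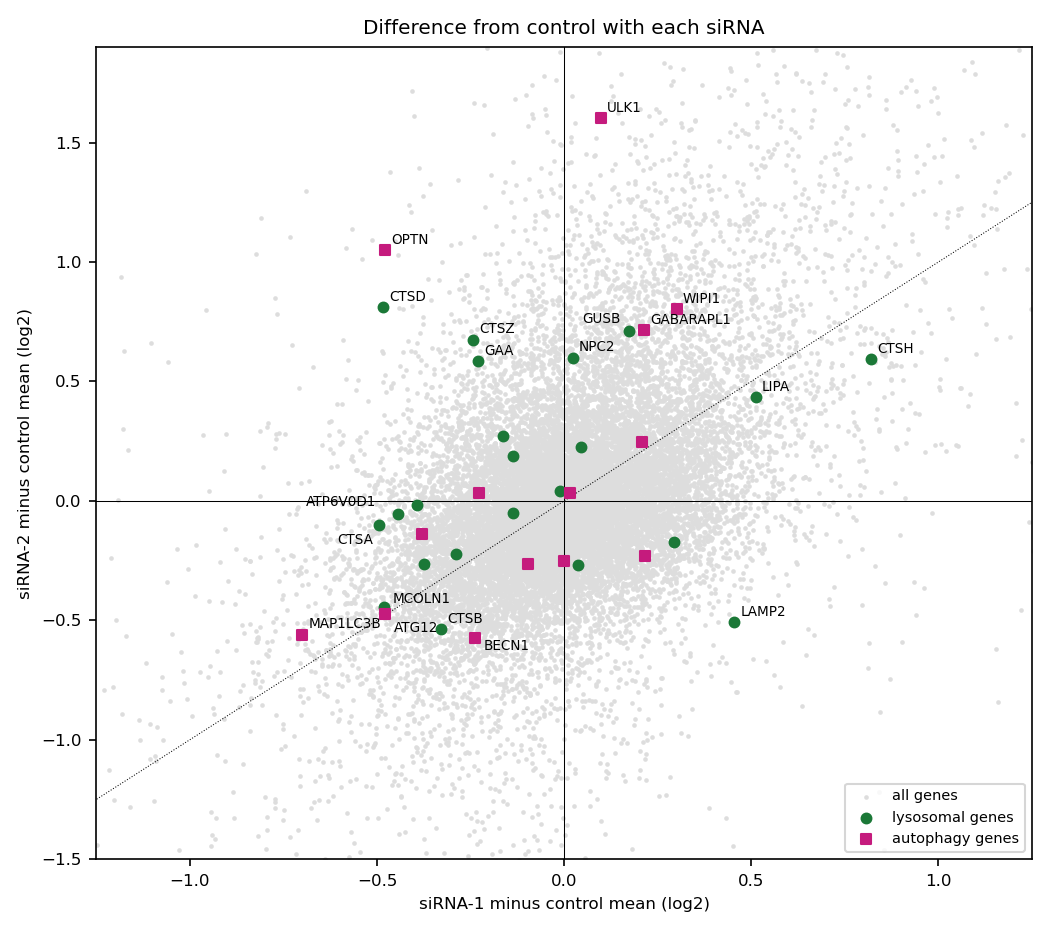
Difference from the control mean (log2) with siRNA-1 (x axis) and siRNA-2 (y axis) for lysosomal genes (green circles), autophagy genes (magenta squares) and all genes (grey), with equal differences on the dotted line; 347 genes lie outside the axes and are not drawn. CTSD, OPTN, CTSZ and GAA sit at upper left, LAMP2 at lower right, and MAP1LC3B, ATG12 and MCOLN1 near the dotted line at lower left.

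The other genes of these pathways were read from 9 lists (165 genes, 151 measured). Both LSD1-KD arrays were above both controls for 41 (27.2%) and below both for 46 (30.5%), near the 23.6% and 25.4% of all genes. With siRNA-2, 38 rose (25.2%) and 20 fell (13.2%), beside 13.3% and 10.2% of all genes. None passed with both siRNAs together, and 14 were higher and 20 lower at an unadjusted p under 0.05, beside 7.51% and 7.11% of all genes. The 30 other hydrolases had 13 rising and 2 falling with siRNA-2, and 11 above and 3 below both controls. DNASE2, the acid DNase, read 0.19 and 0.78 on the LSD1-KD arrays, against -0.19 and -0.21 on the controls, and FUCA1, the alpha-fucosidase, read 0.21 and 0.63, against -0.21 and -0.24. NAGLU, which degrades heparan sulfate, read 0.16 and 0.77, against -0.18 and -0.16. In all of these siRNA-1 was above the controls and siRNA-2 further above, and each rose with siRNA-2 (adjusted p = 0.0157, 0.0183 and 0.0163). CTSK, a collagen-degrading cathepsin that was in the dimmest class, rose by 0.86 with siRNA-2 (adjusted p = 0.0186).

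The 16 other membrane proteins had 5 rising and 4 falling with siRNA-2. Over all genes 13.3% rose and 10.2% fell, also for the siRNA-2 counts that follow. SLC38A9, an arginine sensor of the lysosomal membrane, rose by 0.93, while OSTM1, the partner of the chloride exchanger CLCN7, fell by 0.51, TMEM192 by 0.72 and LAPTM4B by 0.81. OSTM1 was low with both siRNAs, at -0.40 and -0.23 against 0.23 and 0.33. Of 8 genes that sort hydrolases by mannose 6-phosphate, the receptor M6PR fell by 0.51 and the adaptor GGA1 by 0.65 with siRNA-2. NAGPA, which uncovers the tag, rose by 0.51 with siRNA-2, where siRNA-1 gave -0.24. Among 26 genes of the TFEB family and of mTORC1, the kinase complex that restrains TFEB at the lysosome, 7 rose and 3 fell with siRNA-2. LAMTOR5, a subunit of the Ragulator that anchors mTORC1, read -0.10 and -1.90, against 0.10 and 0.11. SESN1, an inhibitor of mTORC1 signalling, read 0.23 and 1.30, against -0.26 and -0.23. These 2 genes and FNIP2, a partner of folliculin that rose by 1.20 with siRNA-2, also passed the test between the siRNAs (adjusted p = 0.0401), and the siRNA-1 difference was at most 0.47 in size in each. FNIP1, the relative of FNIP2, fell by 0.68 with siRNA-2.

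Of 19 other initiation genes, 8 were below both controls and 1 above, where all genes gave 25.4% below and 23.6% above, also for the counts that follow. ATG13, a subunit of the ULK1 complex, fell by 0.80 with siRNA-2, where siRNA-1 gave -0.36. ATG14, ZFYVE1 and WIPI2, which act at the site where the membrane forms, instead rose by 0.69, 0.68 and 0.62 with siRNA-2. With siRNA-1 they stood at -0.0072, -0.05 and -0.12. Among 9 other ATG8 and conjugation genes 5 were below both controls and 1 above. ATG4B, a protease that trims and releases ATG8 proteins, rose by 0.75 with siRNA-2, where siRNA-1 gave 0.11. ATG10, which joins ATG12 to ATG5, rose by 0.91 with siRNA-2, where siRNA-1 gave -0.06. ATG16L2, a relative of ATG16L1, rose by 0.70 with siRNA-2 and stood at -0.31 with siRNA-1. Of 14 other receptors 7 were above both controls (23.6% of all genes) and 1 below (25.4%). PINK1, the kinase that marks damaged mitochondria, rose by 1.21 with siRNA-2 and read -0.05 with siRNA-1. CALCOCO2 (NDP52) fell by 0.90 with siRNA-2, where siRNA-1 gave -0.20. BNIP3, a mitochondrial receptor, fell by 1.15 with siRNA-2, where siRNA-1 gave 0.16. TAX1BP1 instead read 0.70 and 0.03, against -0.03 and -0.04. PINK1, CALCOCO2, BNIP3 and TAX1BP1 all passed between the siRNAs. Their siRNA-2 minus siRNA-1 differences were 1.26, -0.70, -1.31 and -0.67. In the 14 genes of fusion with the lysosome, VPS33A, a subunit of the HOPS tethering complex, read -0.03 and -1.74, against 0.03 and 0.05. Its HOPS partner VPS41 read 0.24 and 0.23, against -0.31 and -0.23, and rose with siRNA-2 (0.49, adjusted p = 0.0414) by about as much as the siRNA-1 difference (0.51). TECPR1 rose by 0.72 and RAB7A, the small GTPase of late endosomes, fell by 0.40.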

How the data were processed

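Total RNA was read on 4 Affymetrix HG-U133 Plus 2.0 arrays. The deposited values were made by the authors with RMA, per the submitters' processing notes, and are taken here as log2. They also show centring: the median of each of the 54675 probe sets was 0 within 5.0e-07. The software version and the log base are not stated in those notes. No depth exists for an array, and the number of arrays limits the precision. Symbols came from the platform annotation: 41091 probe sets named 1 gene, 1801 several and 11721 none, leaving 19775 genes after control probe sets were set aside, of which 19735 matched RefSeq.

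With levels removed, brightness was inferred from how coarsely each probe set's numbers are stepped (classes 8 or above, 4 to 8, below 4). By chance about 1 in 8 lands one class too bright. The brightest probe set stood for a gene, then one without a letter suffix, then the identifier. Every gene of the set was named, with values on all arrays where both LSD1-KD arrays lay beyond the controls by at least 0.2 or a test passed, and for TFEB and SQSTM1. At most 4 genes were named per further list. Tests used limma 3.58.1 in R 4.3.3, 2 arrays against 2 without a replicate block, or 3 groups for single siRNAs. Only the test of 2 arrays against 2 was checked on simulated data. Those of single siRNAs and between the siRNAs were not. The members and lists were chosen with earlier results of these data known. Alternatives were other probe set rules, a filter on dim genes, array medians set to 0, robust moderation, a replicate block and leaving out arrays. Replicate numbers do not pair the arrays: deviations of same-numbered arrays correlated at 0.0346 over genes, there are only 2 pairs, and the number is also that of the siRNA.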

Additional observations from a re-analysis of the deposited data

Results flagged for a closer look

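For 6 genes the effect differed between the 2 siRNAs by the test of that difference. The siRNA-2 minus siRNA-1 value was 1.53 for OPTN, 1.51 for ULK1, 1.29 for CTSD, 0.92 for CTSZ, 0.81 for GAA and -0.96 for LAMP2. A lone array per siRNA stands behind each, with the spread taken from the controls. For OPTN the second probe set kept the order of the siRNAs, for CTSZ it kept it with a smaller gap, and for LAMP2 the other 3 probe sets were higher with both siRNAs. The hybridization spike-ins, which the comparisons do not use, averaged 1.28 higher on the LSD1-KD arrays than on the controls. Their part in the results was not tested.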

How the results depend on the processing

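Lysosomal genes are given before autophagy genes throughout. The count that passed LSD1-KD against control was 0 and 0, also with the replicate block on the numbers in the titles, which do not pair the arrays. Leaving out 1 array gave 0 to 9 and 0 to 7, the upper end without the siRNA-1 array, where siRNA-2 stands alone. With siRNA-1, 1 lysosomal gene passed without dim genes, and 1 and 1 with array medians set to 0. With siRNA-2 the counts of 9 and 7 became 14 and 12 when every probe set was fitted on its own, counting probe sets. The autophagy count became 4 without probe sets ending in _x_at or _s_at. MAP1LC3B and GABARAPL1 have only such probe sets and drop out there, as does any gene without another kind. Between the siRNAs the counts of 4 and 2 became 0 and 0 with every probe set on its own, 7 and 4 without dim genes, 2 lysosomal without _x_at and _s_at probe sets, and 4 autophagy with array medians set to 0. Genes above both controls were 8 lysosomal and 3 autophagy with the mean of all probe sets, and 3 autophagy without _x_at and _s_at probe sets. Leaving out an array gave ranges of 5 to 11 and 5 to 6. With every probe set read on its own, 11 lysosomal probe sets were above. Probe sets below both were 17 and 16 in that setting. Genes below both were 3 autophagy without _x_at and _s_at probe sets, with ranges of 7 to 14 and 5 to 7 on leaving out an array. Fewer arrays make that criterion easier to meet. The other pathway genes gave 83 probe sets above and 120 below with every probe set. Counted as genes, 23 were above without _x_at and _s_at probe sets, and leaving out an array gave ranges of 46 to 79 and 53 to 79. V-ATPase genes above both controls were 3 to 5 on leaving out an array and 0 without _x_at and _s_at probe sets, alternatives chosen after seeing the data. The 0 was fixed in advance, since ATP6AP2, ATP6V0E2 and TCIRG1 have only _s_at probe sets and are not measured there. The lysosomal median over both siRNAs ran from -0.15 to 0.0495 on leaving out an array, so its sign is not settled, and with siRNA-1 it was -0.049 without _x_at and _s_at probe sets. The autophagy median over both siRNAs was -0.11 with the mean of all probe sets, -0.13 with every probe set, and -0.11 to -0.0154 on leaving out an array. With siRNA-1 it was -0.10, -0.11, and -0.10 to -0.001, and with siRNA-2 -0.001, -0.14, and -0.10 to -0.0224. LAMP2 with siRNA-2 reversed to 0.38 with the mean of all probe sets. Apart from the constructions named, the cause of these shifts was not tested. Tests of single siRNAs were not run with a control left out, since no residual degree of freedom remains; the medians, which need no test, were. For the 2 siRNAs against each other, a fit with their own arrays and the controls is the reported fit. Brightness could only be inferred, so a limit by signal was not tested, and 2 arrays per group limit every call.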
